A study of Homo sapiens with 4 samples.

Results

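A set of 10 inflammatory cytokine and chemokine genes was examined for accessible chromatin before and after HRAS transformation, out of 20098 protein-coding genes in the annotation. The 10 genes were IL1A, IL1B, IL6, LIF, CXCL1, CXCL2, CXCL3, CXCL8, CCL20 and IL24, taken as a list of names. They lie at 6 loci, because the 4 CXCL genes share a stretch of 4q13 and IL1A and IL1B are neighbours on chromosome 2, and each of these sets was counted as 1 locus. Of 60886 accessible regions in the genome, 64 lay in one of the genes or within 100 kb of its start.

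The assay was ATAC-seq: a transposase, Tn5, cuts and tags DNA where chromatin is open, and a place with many tagged ends is called a peak. The cells were MCF10A, an immortalized, nontransformed human mammary epithelial line labelled Parental, and G12V, the same line labelled H-RAS Gv12 after lentiviral transfer of the HRAS oncogene carrying the G12V change and hygromycin selection. Both were grown with cholera toxin, EGF, insulin, hydrocortisone (a glucocorticoid) and horse serum, and the labels name no cytokine or other inflammatory stimulus. There were 2 biological replicates of each. The oncogene was not switched on and off, so the comparison sets a stably transformed line against its parent.

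The genes encode secreted signals that epithelial cells release on injury, infection or oncogenic stress. The IL-1 ligands act upstream of the others: they bind their receptor and activate the transcription factor NF-κB, which, with AP-1 and C/EBP factors, switches on the IL6 and CXCL genes. IL-6 and LIF signal through the shared receptor subunit gp130 (IL6ST), the CXCL ligands recruit neutrophils through CXCR1 and CXCR2, CCL20 attracts CCR6-positive lymphocytes and dendritic cells, and IL-24 acts through receptors of the IL-20 family.

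The 6 promoters that held a match to an NF-κB pattern near the RefSeq start are shown first, because most of the promoter peaks described here lie over or beside these sites. RefSeq starts were added after the data had been seen. At the GENCODE starts, the main choice here, only the 4 CXCL promoters held a match, and those of IL6 and CCL20 did not. The shares over all promoters are given with the motif counts further below. Each line gives 30 bases of the reference genome (hg19), read 5′ to 3′ on the strand of the gene, with the matched letters in capitals. Among them the 9-letter pattern GGAANTTCC was found at CXCL1, CXCL2, CXCL3 and CXCL8, and the NF-κB consensus at all but CXCL8. A match is a stretch of letters and does not show that the factor was bound.

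CXCL8, chr4:74606185-74606214, plus strand: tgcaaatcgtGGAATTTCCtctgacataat
CXCL1, chr4:74735022-74735051, plus strand: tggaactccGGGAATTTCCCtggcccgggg
CXCL2, chr4:74964971-74965000, minus strand: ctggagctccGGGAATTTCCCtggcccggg
CXCL3, chr4:74904466-74904495, minus strand: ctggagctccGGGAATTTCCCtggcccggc
IL6, chr7:22766736-22766765, plus strand: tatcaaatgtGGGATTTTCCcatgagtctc
CCL20, chr2:228678469-228678498, plus strand: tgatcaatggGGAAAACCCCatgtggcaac

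The sites of CXCL1, CXCL2 and CXCL3 held the same 11 matched letters. Of the 300-base promoters of these genes, from 250 bases before to 50 after the RefSeq start, CXCL1 and CXCL3 had 82.5% identical positions in a gapped alignment. CXCL1 and CXCL2 had 72.1% and CXCL2 and CXCL3 73.8%. The promoter of CXCL8 shared between 42.6% and 44.9% with these 3 genes.

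The peak lists differed in size more between replicates than between cell types. On the 22 autosomes and X, the MCF10A lists held 12888 peaks (replicate 1) and 34463 (replicate 2), and the G12V lists 14042 (replicate 1) and 46673 (replicate 2). The number of reads is unknown, so a locus without a peak was not called at that depth and may still be open. Each peak carries a score, which is 10 times the negative log10 of its p-value from the peak caller, with a minimum of 40. Scores grow with depth, so a peak is given here by its percentile, the share of its own list with a score at or below it. A percentile rises when a longer list adds weaker peaks, so the rank from the top of the list is given too where the direction depends on it.

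At the promoters, defined as 1000 bp upstream to 500 bp downstream of the GENCODE start of a gene, the 4 CXCL genes, IL1B and CCL20 had a peak in at least 1 library, and IL1A, IL6, LIF and IL24 had none. This is 6 of 10 genes, beside 49.7% of all protein-coding genes. By library, 1 gene had a promoter peak in MCF10A replicate 1, 3 in MCF10A replicate 2, 1 in G12V replicate 1 and 6 in G12V replicate 2. Over all protein-coding genes the shares were 20.4%, 41.1%, 22.2% and 43.8% in the same order. No member had a promoter peak in all 4 libraries, which 13.6% of all genes had. None had one in both G12V libraries and neither MCF10A library, which 0.856% of all genes had. The count was 1 of 10 in each of the 2 shallow lists.

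**Figure D1:**
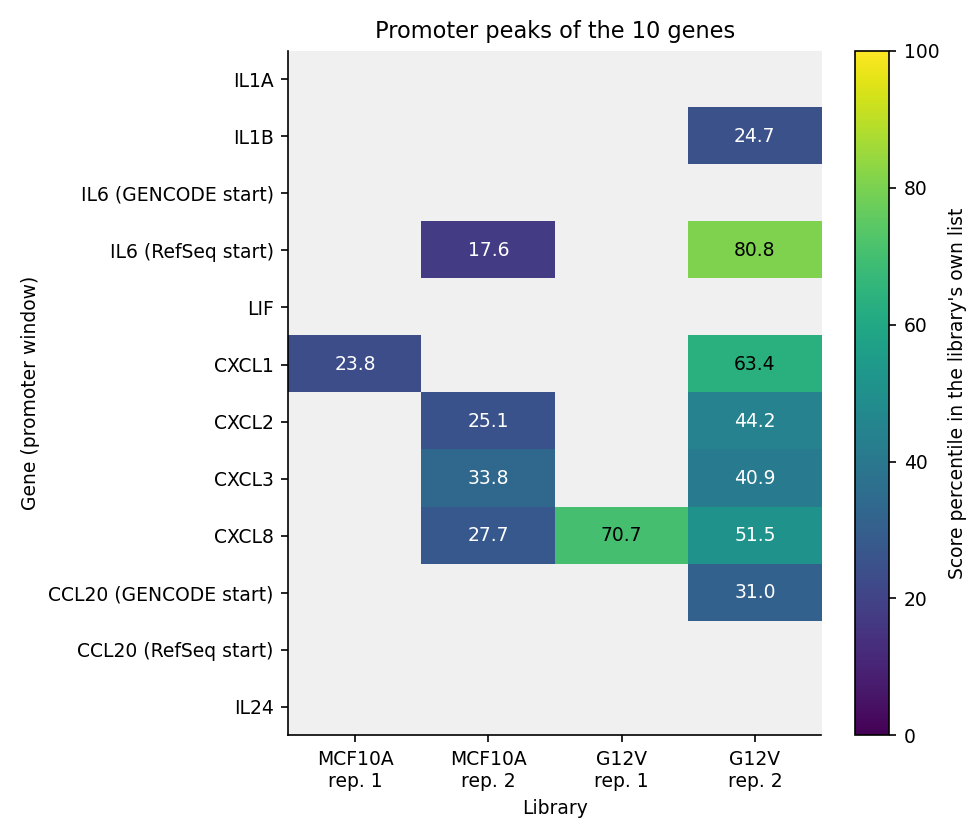
Rows are the promoter windows of the 10 genes, with a second row at the RefSeq start for IL6 and CCL20, columns are the 4 libraries, and colour and number give the score percentile of the best peak in the library's own list, with grey for no peak. CXCL8 is the only gene with a peak in 3 libraries. The promoters with a peak in both replicate 2 libraries have the higher percentile in G12V, whose list is longer, but by rank from the top of the list CXCL2 and CXCL3 stand higher in MCF10A.

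CXCL8 encodes interleukin-8, the principal human neutrophil chemokine (GENCODE gene ENSG00000169429, chr4:74606236-74609433, plus strand). Its promoter had no peak in MCF10A replicate 1, a peak at percentile 27.7 in MCF10A replicate 2, one at 70.7 in G12V replicate 1 and one at 51.5 in G12V replicate 2. Both G12V percentiles were above the MCF10A value, but the region counts as neither gained nor shared because 1 MCF10A list held it. When only the better-scoring 50% of each list was used, the MCF10A peak was dropped and the promoter had a peak in both G12V libraries alone. It was the one promoter in the set with a peak in the shallow G12V list.

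The peaks at CXCL8 also differed in where they ended. The G12V replicate 1 peak ran from 74606187 to 74606456 and that of G12V replicate 2 from 74606134 to 74606659. Both covered the NF-κB match, which lies 83 to 91 bp before the RefSeq start of the gene. The MCF10A replicate 2 peak ran from 74606231 to 74606592 and began downstream of the match. These edges are those of the peak caller and move with depth. The 150 bases before the GENCODE start (chr4:74606086-74606235, plus strand, hg19) are shown with the AP-1 match and then the NF-κB match in capitals.

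CXCL8 upstream: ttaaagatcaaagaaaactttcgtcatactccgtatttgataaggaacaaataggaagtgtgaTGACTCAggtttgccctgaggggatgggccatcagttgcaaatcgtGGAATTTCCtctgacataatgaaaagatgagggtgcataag

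CXCL1, CXCL2 and CXCL3 encode closely related ligands of CXCR2. The CXCL1 promoter (gene at chr4:74735110-74737025, plus strand) had a peak in MCF10A replicate 1 at percentile 23.8 and in G12V replicate 2 at 63.4, and none in the other 2 libraries. This is a crossed pattern, 1 library of each cell type with different replicate numbers, which separates neither the cell types nor the replicates. Both peaks covered the NF-κB match. Outside the promoter window, 1.2 kb upstream (chr4:74733608-74733918), MCF10A replicate 2 had a peak at percentile 22.6. With a promoter of 2000 bp upstream to 1000 bp downstream, both MCF10A libraries and G12V replicate 2 had a CXCL1 promoter peak.

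The CXCL2 promoter (gene at chr4:74962757-74964913, minus strand) had peaks only in the 2 deep libraries, at percentile 25.1 in MCF10A replicate 2 and 44.2 in G12V replicate 2, or ranks 25834 and 26070 from the top of the list. The MCF10A peak covered the NF-κB match, whereas the G12V peak, at 74965016 to 74965477, began upstream of it. The CXCL3 promoter (gene at chr4:74902306-74904524, minus strand) likewise had peaks at 33.8 in MCF10A replicate 2 and 40.9 in G12V replicate 2 (ranks 22811 and 27611), and both covered the match. Peaks at these 2 promoters were called in the 2 longer lists, both of replicate 2, and in neither shorter list. List size and replicate number cannot be told apart here, and the cause was not tested.

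The promoters of CXCL1, CXCL2 and CXCL3 are alike in sequence, and the authors kept only reads with 1 position in the genome, so reads from stretches that occur elsewhere would not have been counted. Of the 51-base words in the promoter window, the tag size set in peak calling, 9.30% in CXCL2, 8.82% in CXCL3 and 1.93% in CXCL1 occurred elsewhere in the genome. The value was 0% at CXCL8, IL1A, IL6 and LIF, 2.27% at CCL20, 1.31% at IL1B and 0.965% at IL24. The part of repeated sequence in the missing peaks was not tested.

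IL1B, the main secreted form of interleukin-1 (ENSG00000125538, chr2:113587328-113594393, minus strand), had 1 promoter peak, in G12V replicate 2 at percentile 24.7. It spanned the gene start and part of the UTR. A second peak in the same library lay 2.7 kb upstream at percentile 43.5 (chr2:113597079-113597562). Neither had a counterpart in the other 3 libraries. IL1A (ENSG00000115008, chr2:113531502-113542070, minus strand), which encodes the membrane and alarmin form of the cytokine, had no peak at its promoter or inside the gene in any library.

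The start of IL6 depends on the annotation, and so does its promoter call. GENCODE starts the gene (ENSG00000136244, chr7:22765503-22771621, plus strand) 1316 bp upstream of the RefSeq start at 22766819. No library had a peak in the GENCODE window. At the RefSeq start, a choice made after the data had been seen, there was a peak at percentile 17.6 in MCF10A replicate 2 (22766473 to 22766834) and one at 80.8 in G12V replicate 2 (22766114 to 22767278). A smaller MCF10A replicate 2 peak at percentile 6.93 followed at 22766897 to 22767219. In both libraries a peak covered the NF-κB match, which is 64 to 73 bp before the RefSeq start.

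The region at the IL6 RefSeq start had the widest gap in percentile between the deep libraries of any in the set, 17.6 against 80.8, with no peak in either replicate 1 list. It also overlapped an annotated start of STEAP1B, so the signal cannot be assigned to IL6 alone. Elsewhere within 100 kb, IL6 had 4 peaks in G12V replicate 2 only, at 73.4 and 6.9 kb upstream and 5.4 and 65.6 kb downstream, with percentiles from 29.3 to 70.5. The region 5.4 kb downstream lay inside the gene, over coding exon and UTR.

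LIF (ENSG00000128342, chr22:30636442-30642748, minus strand), a cytokine of the IL-6 family, had no peak at its promoter or in the gene. Its 6 regions all lay at least 33.8 kb away. The one seen in 3 libraries, 49.9 kb downstream (chr22:30592110-30592895), had percentile 70.7 in MCF10A replicate 2, 39.6 in G12V replicate 1 and 14.7 in G12V replicate 2. Here the MCF10A value was the highest of the 3.

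IL24 (ENSG00000162892, chr1:207070788-207077484, plus strand) encodes a cytokine of the IL-10 family and sits beside IL20 and IL19. It had no promoter peak, and 1 peak inside the gene, in an intron 0.9 kb from the start in G12V replicate 2 at percentile 6.77. The strongest of its 10 regions was intergenic, 6.2 kb upstream (chr1:207063455-207064602), at percentile 90.7 in G12V replicate 2 and with no peak in the other libraries. Nearer the gene, 1.5 kb upstream (chr1:207068717-207069284), MCF10A replicate 2 alone had a peak, at percentile 30.9. A region 7.7 kb downstream, in FCMR, had percentile 26.0 in MCF10A replicate 2 and 64.3 in G12V replicate 2. A crossed region 11.6 kb downstream, also in FCMR, had percentile 2.66 in MCF10A replicate 2 and 1.05 in G12V replicate 1.

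CCL20 had the most distal accessibility of the 10 genes. Within 100 kb of its GENCODE start (ENSG00000115009, chr2:228670455-228682280, plus strand) lay 13 regions, and 4.30% of protein-coding genes had as many. The median over all protein-coding genes was 5. The members ranged from 5 regions at IL6 and CXCL1 to 10 at IL24 and 13 at CCL20.

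A region was called gained when both G12V lists and neither MCF10A list had a peak in it, and all 3 such regions in the set lay near CCL20. The first was intergenic, 8.7 kb upstream (chr2:228661055-228661733), with percentile 13 in G12V replicate 1 and 60.5 in G12V replicate 2. The next lay 64.8 kb downstream at the start and UTR of the neighbouring gene DAW1 (chr2:228735233-228736102), with percentiles 18.2 and 74.3. The last lay 78.6 kb downstream in a DAW1 intron (chr2:228749023-228749738), with percentiles 53.6 and 63.3. The count of 3 was 1 with lists of equal size, 1 in a window of 50 kb, 5 without MCF10A replicate 2 and 30 without G12V replicate 1. In each of the 3 regions the shallow G12V list held the lower percentile, and in the first and second that peak was among the weaker in its list. DAW1 encodes a ciliary dynein assembly factor and had the same 3 regions within its own window, so the files do not tell which gene, if either, they belong to.

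A count of 3 gained regions was the most that any protein-coding gene had within 100 kb, and 35 genes (0.174%), in 18 separate groups of neighbours, had that many. Having at least 1 was more common, at 14.8% of genes, so 1 of 10 members with a gained region is near the background. No member had a lost region, the opposite pattern, which 9.22% of genes had. With 10 genes at 6 loci these counts cannot place the set apart from other genes.

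**Figure D2:**
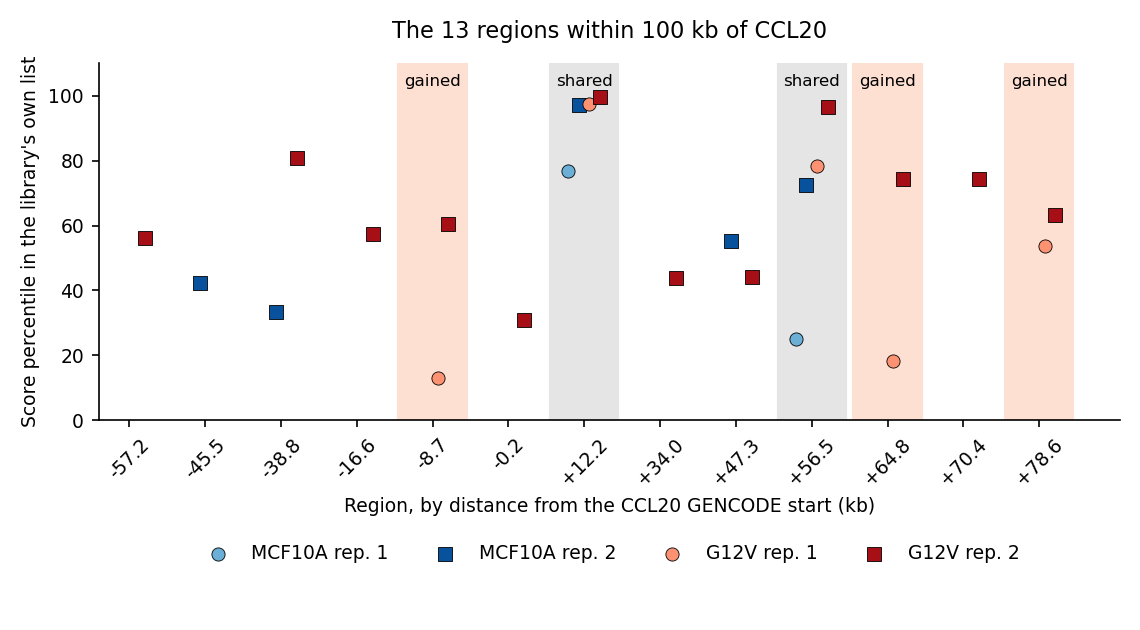
Each position on the horizontal axis is 1 of the 13 regions within 100 kb of CCL20, in order of distance from its GENCODE start in kb, and points give the score percentile in each library with a peak there. Red shading marks the 3 gained regions and grey shading the 2 regions with a peak in all 4 libraries, of which the one at +12.2 kb lies at percentile 76.7 or above throughout.

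A further 2 regions near CCL20 had a peak in all 4 libraries. The one 12.2 kb downstream of the GENCODE start, just past the end of the gene (chr2:228682607-228684286), had percentile 76.7 in MCF10A replicate 1, 97.0 in MCF10A replicate 2, 97.4 in G12V replicate 1 and 99.7 in G12V replicate 2. It was thus near the top of 3 of the 4 lists. The other, 56.5 kb downstream (chr2:228726981-228728600), had percentiles 25.2, 72.6, 78.5 and 96.5 in the same order. At both, each G12V library ranked the region higher than either MCF10A library did, so the groups did not overlap. The order was the same by rank from the top of the list, with ranks 3006, 1027, 362 and 133 at the first and 9649, 9440, 3029 and 1633 at the second. With 2 libraries against 2, an exact two-sided permutation test cannot give a p below 0.333, and no test was run on these values. The share of all shared regions in the genome with such an order was not counted, and the 2 shared regions at other loci of the set did not have it.

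Of the remaining 8 regions near CCL20, 5 had a peak in G12V replicate 2 only, 1 in MCF10A replicate 2 only and 2 in both. The promoter at the GENCODE start was among the first of these, at percentile 31.0. RefSeq starts CCL20 8103 bp further downstream, at 228678558, and that promoter window had no peak in any library, nor did any peak cover the NF-κB match 70 to 79 bp before it. The 64.8 and 78.6 kb distances shrink by the same 8103 bp when counted from that start, and all 3 gained regions stayed within 100 kb.

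The gained and shared calls at CCL20 rest on the peaks and not on sequence. Shown here are the sequences of the gained regions and of the strongest shared region. Each is 300 bases of hg19, plus strand, centred on the peak with the highest percentile, with motif matches in capitals. The region at the DAW1 start is shown as 30 bases around its AP-1 match.

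CCL20 gained, 8.7 kb upstream, chr2:228661233-228661532: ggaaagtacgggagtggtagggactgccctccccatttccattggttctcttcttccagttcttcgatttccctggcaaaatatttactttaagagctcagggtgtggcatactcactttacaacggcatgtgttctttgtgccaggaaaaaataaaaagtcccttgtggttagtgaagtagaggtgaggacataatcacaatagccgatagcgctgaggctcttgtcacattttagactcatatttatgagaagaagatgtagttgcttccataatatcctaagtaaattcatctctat
CCL20 gained, 64.8 kb downstream, chr2:228735569-228735598: taacacaGGAATGACTCAagtttgagaaat
CCL20 gained, 78.6 kb downstream, chr2:228749231-228749530: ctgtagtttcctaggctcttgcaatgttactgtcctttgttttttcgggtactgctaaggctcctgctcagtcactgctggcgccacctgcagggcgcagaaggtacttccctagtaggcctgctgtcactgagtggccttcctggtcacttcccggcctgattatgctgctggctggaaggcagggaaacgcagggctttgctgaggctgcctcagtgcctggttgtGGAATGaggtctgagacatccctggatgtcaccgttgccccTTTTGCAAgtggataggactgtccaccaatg
CCL20 shared, 12.2 kb downstream, chr2:228683336-228683635: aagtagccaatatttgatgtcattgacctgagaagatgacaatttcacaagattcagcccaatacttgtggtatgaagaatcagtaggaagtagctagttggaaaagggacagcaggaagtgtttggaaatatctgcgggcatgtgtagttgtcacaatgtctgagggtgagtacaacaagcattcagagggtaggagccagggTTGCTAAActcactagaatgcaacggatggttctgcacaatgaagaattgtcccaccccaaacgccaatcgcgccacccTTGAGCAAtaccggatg

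No searched motif was found in the window 8.7 kb upstream. The window at the DAW1 start held an AP-1 match that overlaps a TEAD match, so that the capitals there mark both. The window 78.6 kb downstream held a TEAD match and then a C/EBP match. The strongest shared region held 2 C/EBP matches and no NF-κB match. The window of the other shared region, 56.5 kb downstream and not shown, held an NF-κB consensus match that overlaps a TEAD match.

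Over all 64 regions near the 10 genes, 3 were gained (4.69%), 0 were lost, 4 were shared by all libraries (6.25%) and 2 were crossed (3.12%). Over all 60886 regions of the genome 3.20% were gained, 2.14% lost, 8.36% shared and 1.47% crossed. The shares near the genes rest on 0 to 4 regions each and are read as near the background. Most regions, 42 of 64, were in a single library, of which 27 were in G12V replicate 2 only, 13 in MCF10A replicate 2 only and 2 in a replicate 1 library only. A further 11 were in both replicate 2 libraries only.

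The 2 shared regions outside the CCL20 locus lay at other genes. One, 19.3 kb downstream of the IL1A start, overlapped the CKAP2L promoter (chr2:113522005-113522758), with percentiles 32.6, 85.6, 72.2 and 69.1 in MCF10A replicates 1 and 2 and G12V replicates 1 and 2. The other lay in an exon of MTHFD2L, 58.4 kb upstream of CXCL2 (chr4:75023290-75024206), with percentiles 80.7, 74.2, 56.6 and 87.8. In both regions the groups overlapped.

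**Figure D3:**
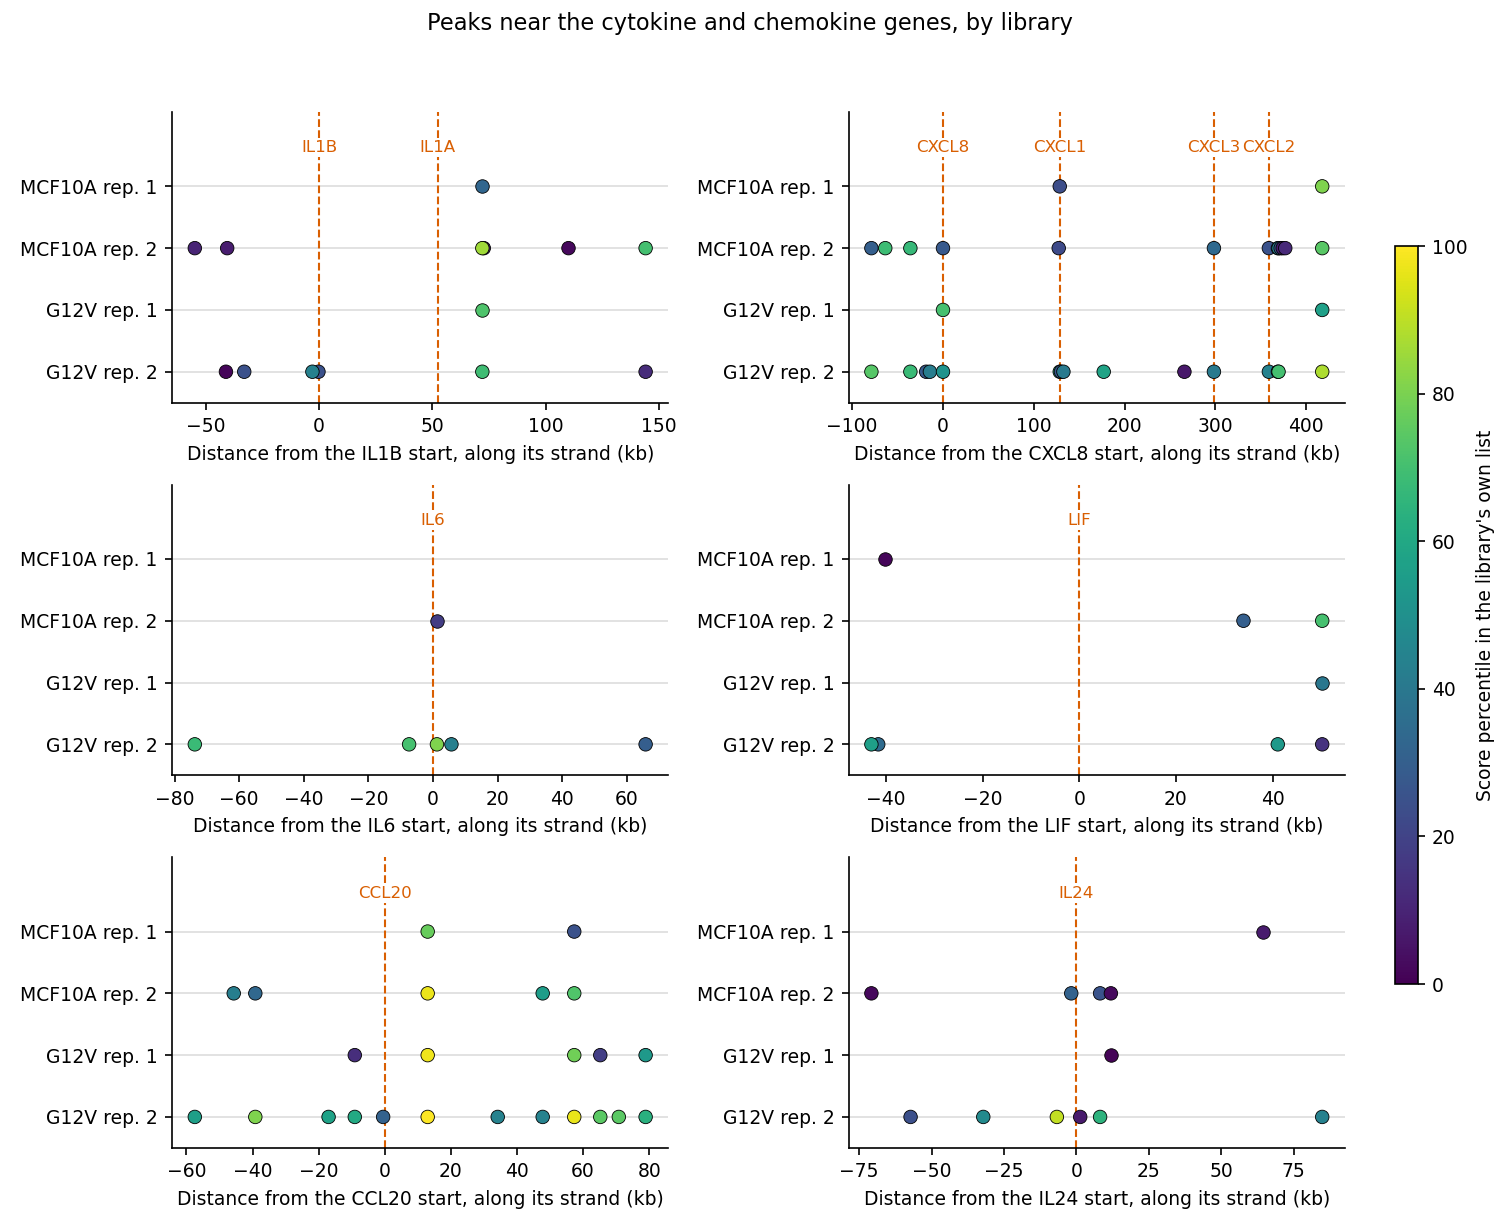
Each panel is 1 locus, with each library on its own line, distance from the named gene's GENCODE start along its strand in kb on the horizontal axis, dashed lines at the starts of the member genes and colour for the score percentile of the best peak of the region. The replicate 2 lines hold most points at every locus, and the CCL20 panel is the one with 3 positions marked in both G12V lines and neither MCF10A line.

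The 2 deep libraries can be compared with each other, without the shallow lists. Of the 62 regions with a peak in either, 31 had one in G12V replicate 2 only, 14 in MCF10A replicate 2 only and 17 in both. Over the genome 41.7% of such regions were in G12V replicate 2 only, the list with more peaks. Among the 17 in both, 12 (70.6%) had the higher percentile in G12V, beside 63.1% over the genome. By rank from the top of the list, a measure chosen after the data had been seen, it was 9 of 17 (52.9%), beside 46.3%. The comparison is of 1 library with 1 library and has no replicate check.

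**Figure D4:**
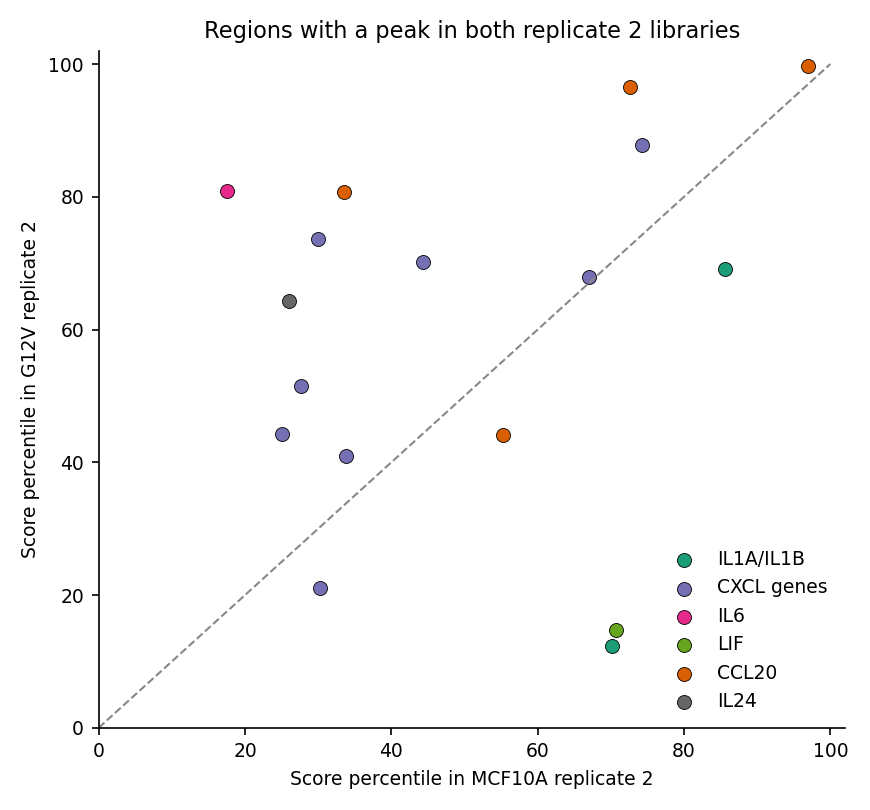
Each point is 1 of the 17 regions with a peak in both replicate 2 libraries, with the score percentile in MCF10A replicate 2 on the horizontal axis and in G12V replicate 2 on the vertical axis, coloured by locus, and equal percentiles on the dashed line. The IL6 region (17.6 against 80.8) lies farthest above the line, and the LIF region (70.7 against 14.7) and an IL1A region (70.1 against 12.4) lie far below it.

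By locus, the direction depended at the CXCL genes on how a peak's place in its list was measured. There 7 of 8 regions had the higher percentile in G12V but 4 of 8 the better rank. The 4 were the CXCL8 promoter (ranks 24921 in MCF10A and 22647 in G12V), the region 78.4 kb upstream of CXCL8 (24118 and 12326) and those 10.5 and 58.4 kb upstream of CXCL2. By both measures it was 3 of 4 at CCL20, 1 of 1 at IL6 and at IL24, 0 of 2 at the IL1 locus and 0 of 1 at LIF. A region near IL1A that was higher in MCF10A lay 91.4 kb downstream (chr2:113450108-113450647), at 70.1 in MCF10A replicate 2 and 12.4 in G12V replicate 2.

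In the shallow pair, 13 regions near the genes had a peak. Of these, 6 were in G12V replicate 1 only, 3 in MCF10A replicate 1 only and 4 in both. Over the genome 39.5% of regions with a peak in either list were in G12V replicate 1 only. The 6 were the 3 gained CCL20 regions, the CXCL8 promoter, the LIF region 49.9 kb downstream and the FCMR region near IL24. The last had a score close to the minimum of 40.

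Set against the size of the lists, peaks near the genes were about as frequent in both cell types. There were 7 in MCF10A replicate 1, 33 in MCF10A replicate 2, 10 in G12V replicate 1 and 48 in G12V replicate 2. This gave 0.543 and 0.958 peaks per 1000 peaks of the list in MCF10A and 0.712 and 1.03 in G12V. The means were 0.750 ± 0.293 and 0.870 ± 0.224 (SD, n = 2 each), and the difference of 0.12 was less than either SD (p = 0.667 by an exact permutation test, two-sided).

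The CCL20 locus was the one at which the groups did not overlap. Its counts include the 3 gained regions, which by definition have peaks in the G12V lists only. The separation is thus not independent of the gained calls, and the share of other loci in the genome with such a separation was not counted. It held 2, 6, 5 and 12 peaks in MCF10A replicates 1 and 2 and G12V replicates 1 and 2, or 0.155, 0.174, 0.356 and 0.257 per 1000. The means were 0.165 ± 0.0134 in MCF10A and 0.307 ± 0.0700 in G12V (SD, n = 2 each), a difference of 0.142 (exact two-sided permutation test, p = 0.333, the smallest p this design can give). At the CXCL locus the means were 0.266 ± 0.157 in MCF10A and 0.232 ± 0.127 in G12V, with 2, 13, 2 and 15 peaks in the same order. The values at the other 4 loci overlapped between cell types as well (exact permutation p from 0.667 to 1.00).

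**Figure D5:**
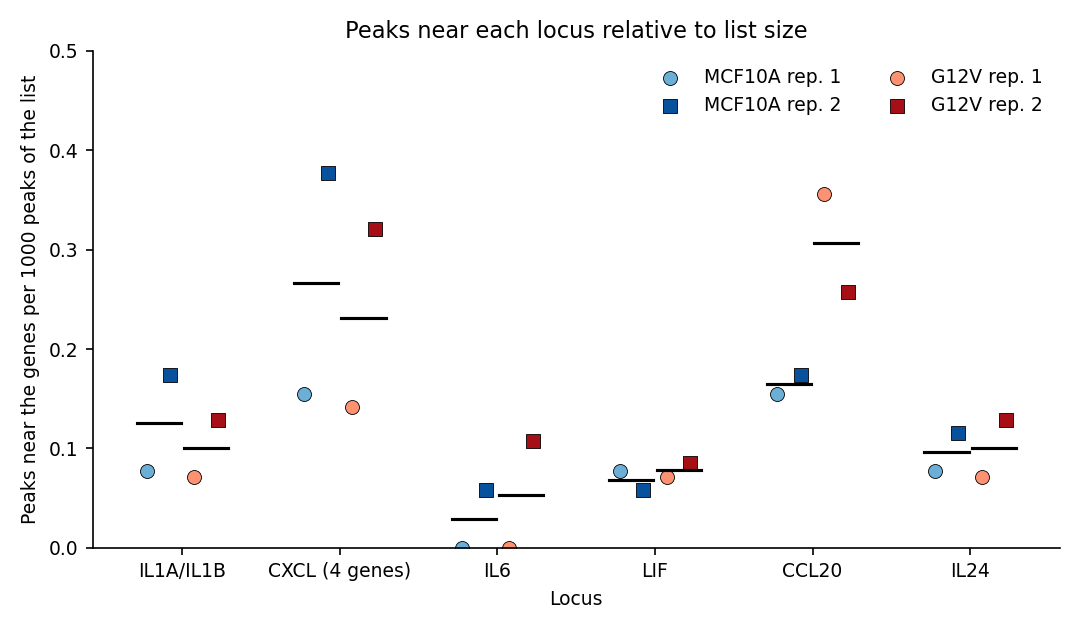
Points give the peaks near each locus per 1000 peaks of the library's list, for each of the 4 libraries, and short black lines give the mean of the 2 libraries of a cell type. At CCL20, whose counts include the gained regions, both G12V points (0.356 and 0.257) lie above both MCF10A points (0.155 and 0.174). At every other locus the points of the cell types overlap.

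Short motifs of inflammatory transcription factors were sought without mismatches on both strands of the 300-base promoters (at the GENCODE start) and of a 300-base window in each region. The NF-κB consensus was found in 3 of 10 member promoters (CXCL1, CXCL2 and CXCL3), beside 6.40% of all protein-coding promoters. With the RefSeq starts, added after the data had been seen, it was in 5, as IL6 and CCL20 were added. The share over all promoters was not counted at RefSeq starts, so this count of 5 has no background beside it. The 9-letter pattern GGAANTTCC was in 4 of 10, beside 0.851%. The 2 patterns overlap, and the matches of CXCL1, CXCL2 and CXCL3 are the same letters in promoters of like sequence. Promoter motifs of these genes are textbook knowledge and were not derived from the peaks.

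Among the other patterns, the AP-1 letters TGANTCA were in 2 of 10 promoters (IL1A and CXCL8) beside 6.37% of all, and the C/EBP letters TTGCNNAA in 3 (IL1B, IL6 and CXCL2) beside 9.14%. The ETS letters CCGGAAGT and the TEAD letters GGAATG were in 0, beside 5.08% and 12.8%. IL1A, with AP-1 matches on either side of its start, had no promoter peak, so a match did not go with a call there.

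In the 64 regions near the genes, AP-1 matches were the most frequent, in 19 (29.7%) beside 35.1% of all regions. TEAD matches were in 16 of the 64 beside 20.1%, and C/EBP matches in 12 (18.8%) beside 16.7%. The NF-κB consensus was in 6 (9.38%) beside 4.50%, of which the promoter regions of CXCL1, CXCL3 and IL6 made 3. The others lay 18.2 kb upstream of CXCL8 and 34.0 and 56.5 kb downstream of CCL20. None of the 3 gained regions had an NF-κB match in its window.

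Genes of the same pathway were described by the same promoter and window rules. Of 13 genes for receptors and a receptor antagonist, 5 had a promoter peak in at least 1 library, beside 49.7% of all protein-coding genes, and 1 had a gained region within 100 kb, beside 14.8%. That gene was IL6R, with the region 76.1 kb upstream. In all 4 it was found at 3, namely IL1R1 and IL1RAP, the signalling chains of the IL-1 receptor, and IL6ST, beside 13.6% of all genes. IL1RAP had percentiles 85.5, 98.5, 97.7 and 99.5 in MCF10A replicates 1 and 2 and G12V replicates 1 and 2. Those of IL1R1 were 61.4, 13.8, 57.7 and 86.4 and those of IL6ST 18.3, 91.6, 66.6 and 94.1. None of the 10 ligand genes had such a promoter. With every annotated transcript start, added after the data had been seen, 8 of the 13 had a promoter peak in at least 1 library. This was 61.5%, beside 58.9% of all genes, so the list was below the background only with 1 start per gene. The count in all 4 libraries stayed at 3, beside 3424 of 20098 genes.

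Of 17 genes for NF-κB subunits, kinases and inhibitors, 14 had a promoter peak in at least 1 library, and BIRC3 had one in all 4, beside 49.7% and 13.6% of all genes. With every annotated transcript start, added after the data had been seen, 14 had one in at least 1 library, beside 58.9%. In all 4 libraries it was then 5 of 17 (29.4%), beside 3424 of 20098 genes. The share in all 4 was thus below the background with 1 start per gene and above it with every start. BIRC3, an inhibitor of apoptosis that NF-κB induces, had percentiles 35.3, 84.0, 23.1 and 91.1. A gained region touched the start of IKBKG, the regulatory subunit of the IκB kinase (percentiles 10.3 and 87.3 in G12V replicates 1 and 2), but only the G12V replicate 2 peak reached its promoter window. With TNIP1, named after its values were seen, 2 of the 17 had a gained region within 100 kb, and BIRC3 alone had a lost one, which is near the 14.8% and 9.22% of all genes.

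Cytokine genes next to the members were mostly without promoter peaks. Of 15 such genes, among them the IL-36 cluster, PF4, PPBP, IL10 and OSM, 3 had one in at least 1 library, and none had a gained or lost region within 100 kb. Of 15 other inflammatory cytokine genes, 4 had a promoter peak, 3 had a gained region within 100 kb and 2 a lost one, beside 49.7%, 14.8% and 9.22% of all genes. The genes with gained regions were CSF2, IL32 and TNF, named here, as IL6R is above, after their values were seen. CSF2, which encodes GM-CSF, had gained regions at 12.4 and 63.0 kb downstream (percentiles 1.97 and 87.7, then 53.3 and 85.3) and a lost region 64.2 kb upstream.

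The label of the cells was checked against marker genes by the same promoter rule. The share of all protein-coding genes with a promoter peak in at least 1 library was 49.7%. Of 12 basal mammary epithelial markers, 6 had one. The promoter of ITGB4, a hemidesmosome integrin, was lost in G12V, with percentiles 10.4 and 74.3 in MCF10A replicates 1 and 2. ITGB4 also had a gained region 13.6 kb upstream, and the share of all genes with a lost promoter is not given here. KRT5, KRT14, KRT18, TP63, CDH1 and EPCAM had no promoter peak in any library. Of 12 immune markers 2 had a promoter peak and of 8 fibroblast markers 3. With every annotated transcript start in place of 1 start per gene, the counts were 8 of 12, 4 of 12 and 4 of 8, beside 58.9% of all protein-coding genes and 7 of the 10 members. The part of other cell types in the results was not tested.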

How the data were processed

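ATAC-seq peak lists of 2 MCF10A and 2 G12V libraries were used as deposited. Per the study's methods and the submitters' processing notes, the authors aligned reads to hg19 with Bowtie, kept uniquely placed reads, shifted read starts to the transposase insertion centre, which suits this assay, and called peaks with MACS. The deposited score of a peak is the caller's -10 log10 of its p-value and is at least 40 in every list. The study pooled replicates for its own calls, whereas the lists are per library and hold no counts, so the read depth is unknown and list size stands in for it.

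Peaks outside the 22 autosomes and X were left out. Any overlap (1 bp or more) joined peaks into a region. Gained regions had a peak in both G12V and neither MCF10A library, lost the opposite, shared all 4, and crossed 1 library of each cell type with different replicate numbers. Gene starts are those of GENCODE release 44 (GRCh37 mapping), where the study used RefSeq. RefSeq starts were found by exact match of the RefSeq promoter sequences (GRCh38.p14) to GRCh37, for the 9 members with an entry. Distances run to the nearest edge of a region. Percentages over all genes or regions are given as background, without a test. Differences between libraries were tested by exact permutation (two-sided), with a threshold of 0.05 that 2 against 2 cannot reach.

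The genes, lists and motifs were chosen with earlier results of these data known. The genes named are the 10 members, with every gained, lost and shared region near them, and, from the lists, those with a gained or lost region at the promoter or a promoter peak in all 4 libraries. IL6R, TNIP1, CSF2, IL32 and TNF fall outside this rule and were named after their values were seen. The settings varied were the top-scoring 50% of the peaks in a list, 12888 best peaks per list, an overlap of 50%, merging within 200 bp, leaving out each library, a replicate block, other starts and windows, other motif windows and other word lengths. RefSeq starts, transcript starts for the lists, and ranks from the top of a list were added after the data had been seen. Merging, classing and the motif search were checked on simulated data. Computations used Python 3.11.15, numpy 2.4.6 and pandas 2.3.3.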

Additional observations from a re-analysis of the deposited data

How the results depend on the processing

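With only the top-scoring 50% of peaks there were 2 shared regions, 2 members with a gained region, 1 gained promoter (CXCL8) and 2 members with a promoter peak. With equal list sizes there was 1 gained region, 64.8 kb from CCL20, and 2 members had a promoter peak. A window of 50 kb left 1 gained and 2 shared regions, and one of 200 kb gave 1 lost region, 2 members with a gained and 1 with a lost region.

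Leaving out 1 library gave 3 to 30 gained regions (30 without G12V replicate 1, 5 without MCF10A replicate 2), 0 to 13 lost regions (13 without MCF10A replicate 1, 2 without MCF10A replicate 2), 1 to 10 members with a gained and 0 to 9 with a lost region, 0 to 2 gained promoters and 0 to 1 members with a promoter peak in every remaining library. The difference in peaks per 1000 ran from -0.0873 to 0.327 and turned negative without MCF10A replicate 1 (-0.0873) and without G12V replicate 2 (-0.0382).

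Replicate numbers do not establish pairing: the deviations of the replicate 1 libraries had a correlation of 0.142 over regions, with 2 numbers. With the number as a replicate block, the replicate 1 pair gave 6 gained and 3 lost regions, 4 members with a gained and 3 with a lost region, 1 gained promoter and 2 members with a promoter peak. The replicate 2 pair gave 31 gained, 14 lost and 17 shared regions, 10 members with a gained and 9 with a lost region, 3 gained promoters and 3 with a peak in both. The shares over all genes at these blocks, with a library left out, or at the other list sizes and windows are not given here. The member counts at those settings thus have no background beside them.

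The 50% overlap, merging within 200 bp, every transcript start and the RefSeq starts kept the counts of gained, lost and shared regions within 1.5 times. A wider promoter, 2000 bp upstream to 1000 bp downstream, does not enter those counts. With it, 8 members had a promoter peak in at least 1 library in place of 6, as IL6 and IL24 were added. By rank in place of percentile, regions higher in G12V replicate 2 than in MCF10A replicate 2 were 9 in place of 12, and 4 in place of 7 at the CXCL locus. Motif counts moved with the window, as did the shares over all regions. The NF-κB consensus was in 3 regions at 150 bp (4.69%, beside 2.29% of all regions) and in 12 in whole regions (18.8%, beside 9.71%). The causes were not tested.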
